A study of Homo sapiens with 16 samples.

Results

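The 40 genes described here encode proteins of the lysosome and the transcription factors TFEB, TFE3 and MITF, which belong to the MiT/TFE family. They were given as a list of symbols, drawn up with earlier results of these data known though no threshold on a measured value chose them, and each symbol matched 1 row of a count table of 43836 genes, of which 19680 are protein-coding in GENCODE release 44. The list holds 12 cathepsins and other proteases, 6 glycosidases and a group of 6 with lipid hydrolases, a thioesterase and cofactors. It also holds 8 membrane glycoproteins and transport proteins, 5 subunits of the V-ATPase and the 3 factors.

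KG-1 is an established human acute myeloid leukemia (AML) cell line of myeloblast-like suspension cells, and RNA-seq counts were analysed for 16 of its libraries, 2 for each of 8 conditions. Control cells carried a pLKO.1-puro lentivirus with a non-target shRNA, FOXM1-KD cells carried a lentivirus with an shRNA against FOXM1, and both had been selected with puromycin, so every group shares transduction and selection. Control cells received 0.3% DMSO (the solvent), 50 µM STL427944, 0.75 µM AraC (cytarabine, a nucleoside analogue) or 100 nM venetoclax (a BCL2 inhibitor) for 48 h, or 30 µM MK-2206 (an allosteric inhibitor of all AKT kinases) for 24 h. FOXM1-KD cells received DMSO, AraC or venetoclax at the same doses for 48 h. The time of MK-2206 treatment therefore differed from that of its DMSO group. Whether a genotype stands for a pool or a clone of transduced cells is not given in the sources used here. Nothing in the labels says whether the 2 libraries of a condition, called biological replicates by the study, came from separate cultures.

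The acidic lumen is kept by the V-ATPase, a proton pump, and most luminal enzymes work only at that low pH. Kinase signalling by mTORC1, which lies downstream of AKT, holds TFEB and TFE3 in the cytoplasm by phosphorylation. When it is off they enter the nucleus and bind the CLEAR element, a motif built around the E-box that lies near the start of many lysosomal genes. In myeloid cells the lysosome also supplies the proteases of antigen processing and is the parent compartment of granules. RNA levels such as those measured here do not report where a factor lies or whether it is phosphorylated.

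Promoter sequences from RefSeq (GRCh38.p14), reaching from 250 bases before to 50 bases after an annotated start, matched 28 of the 40 genes. The E-box CACGTG, which reads the same on both strands, was found in the promoters of 8 of these 28 genes, against 8.77% of all 27305 genes with a promoter. A gene can have several annotated starts. The 28 genes had 42 promoter windows and the 27305 genes had 35116, so the 28 had more windows per gene in which a motif could occur. These shares are not adjusted for that. Its extended form TCACGTGA, which overlaps it by construction, was found in ATP6V0D1, CTSA, GAA, LAMP1 and MCOLN1, against 1.18% of all genes. The CLEAR element, the longest of the 3 motifs, was found in GAA and MCOLN1, against 0.421% of all genes. The other genes with an E-box were CD63, CTSD and NEU1. A match is a description of these letters and not evidence of binding. Shown here are the promoters of NEU1, CTSD and LAMP1, which hold the motif and whose transcripts moved in different directions, and of PPT1 and CTSL, which do not hold it and are the genes with the deepest fall and a rise from 0 counts after MK-2206. Each is given 5′ to 3′ on the strand of the gene, with capitals for each CACGTG and, where present, its extended form. The windows are chr6:31862772-31863071 on the minus strand, chr11:1763878-1764177 on the minus strand, chr13:113296989-113297288 on the plus strand, chr1:40097203-40097502 on the minus strand and chr9:87725869-87726168 on the plus strand.

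NEU1: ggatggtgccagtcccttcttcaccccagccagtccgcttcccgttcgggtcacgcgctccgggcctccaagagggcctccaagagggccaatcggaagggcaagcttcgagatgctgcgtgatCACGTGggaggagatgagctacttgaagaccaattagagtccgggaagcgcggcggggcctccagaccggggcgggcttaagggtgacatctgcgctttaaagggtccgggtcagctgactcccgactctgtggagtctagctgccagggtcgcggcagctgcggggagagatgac
CTSD: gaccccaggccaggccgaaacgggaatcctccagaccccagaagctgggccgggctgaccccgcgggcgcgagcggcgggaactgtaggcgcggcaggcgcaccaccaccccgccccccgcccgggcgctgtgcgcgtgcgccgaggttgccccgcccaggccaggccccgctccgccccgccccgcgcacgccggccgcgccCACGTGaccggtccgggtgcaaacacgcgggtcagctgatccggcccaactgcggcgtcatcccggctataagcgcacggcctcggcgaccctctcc
LAMP1: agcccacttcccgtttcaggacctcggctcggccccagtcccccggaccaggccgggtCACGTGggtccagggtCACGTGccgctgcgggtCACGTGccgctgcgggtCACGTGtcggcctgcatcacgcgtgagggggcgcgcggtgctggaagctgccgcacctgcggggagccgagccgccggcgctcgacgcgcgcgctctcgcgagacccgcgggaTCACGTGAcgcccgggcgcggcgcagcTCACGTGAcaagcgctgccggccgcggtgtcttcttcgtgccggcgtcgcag
PPT1: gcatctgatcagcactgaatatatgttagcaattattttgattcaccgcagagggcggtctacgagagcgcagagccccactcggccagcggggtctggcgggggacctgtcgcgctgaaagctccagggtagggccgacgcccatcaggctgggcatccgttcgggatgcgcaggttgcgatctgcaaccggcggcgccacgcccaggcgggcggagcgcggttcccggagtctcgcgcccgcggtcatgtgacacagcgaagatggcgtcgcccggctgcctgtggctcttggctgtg
CTSL: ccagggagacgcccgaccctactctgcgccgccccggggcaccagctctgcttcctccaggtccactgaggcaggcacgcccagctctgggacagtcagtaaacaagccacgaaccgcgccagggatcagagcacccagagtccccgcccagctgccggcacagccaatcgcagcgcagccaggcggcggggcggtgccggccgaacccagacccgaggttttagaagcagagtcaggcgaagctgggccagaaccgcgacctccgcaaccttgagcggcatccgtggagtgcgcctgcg

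In LAMP1 the motif stood 6 times, with the nearest copy beginning 1 base before the annotated start. In CTSD it began 47 bases and in NEU1 126 bases before the start.

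Library totals ran from 7351755 to 21362546 counts, and the MK-2206 libraries had the lowest totals (7351755 and 10330720). They also had the highest shares of mitochondrial counts, 6.68% and 18.37%, against 1.32% to 3.05% in the other 14 libraries. FOXM1, the target of the shRNA, stood at 140 and 138 CPM (counts scaled to a common library size, on TMM-scaled totals) in control cells with DMSO and at 48.8 and 81.8 in FOXM1-KD cells with DMSO. It was at 21.7 and 19.8 CPM after MK-2206. With venetoclax it stood at 121 and 127 CPM in control and 50.6 and 57.0 in FOXM1-KD cells. With AraC it stood at 181 and 156 CPM in control and 121 and 114 in FOXM1-KD cells, so the FOXM1-KD libraries with AraC lay below their own controls but within the range of the control libraries with STL427944 or venetoclax (112 to 137). The lysosomal genes together took between 0.277% and 0.42% of all counts. In the STL427944 group 16 of the 36 members with at least 1 CPM differed by more than 1.5-fold between the 2 libraries, in the venetoclax group 15 of 36 and in FOXM1-KD cells with venetoclax 21 of 38, whereas none did in control cells with DMSO or AraC.

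FOXM1-KD and MK-2206 libraries also stood apart from the other control libraries in markers of cell type. CD34, a marker of myeloblasts and stem cells, had 25160 and 26713 counts in control cells with DMSO, 7 and 18 in the MK-2206 libraries, 0 and 2 in FOXM1-KD cells with DMSO. Of the 9 myeloblast and stem cell markers 7 were called lower and none higher after MK-2206, and 5 lower and 1 higher (CD33) in FOXM1-KD cells with DMSO. The summed level of 5 granulocyte precursor markers was 13.0 and 13.4 CPM in control cells with DMSO, where ELANE and AZU1 were at 0. With MK-2206 it reached 603 and 421 CPM, in FOXM1-KD cells with DMSO 6176 and 5608. All 5 were called higher in each of the 3 comparisons of FOXM1-KD with control cells, and after MK-2206 4 were called higher and CTSG lower. The summed level of 14 monocyte and macrophage markers was 161 and 131 CPM in control cells with DMSO and 47.0 and 49.5 in the MK-2206 libraries. In FOXM1-KD cells with DMSO it was 616 and 1354 CPM. After MK-2206 5 of 13 tested were called higher and 1 lower, and in FOXM1-KD cells with DMSO 5 of 11 higher and 2 lower. S100A8 was at 0 in control cells with DMSO, after MK-2206 and in FOXM1-KD cells with DMSO. Calls were common in both comparisons, at 54.6% of all protein-coding genes tested after MK-2206 and 29.6% in FOXM1-KD cells with DMSO. All 9 Y-linked genes tested were called lower in FOXM1-KD cells under each treatment and after MK-2206. The Y-linked genes together had 0 or 1 counts in each FOXM1-KD library and 45 and 113 in the MK-2206 libraries, against 13101 to 19273 in the other control libraries. Whether the MK-2206 and FOXM1-KD libraries hold the same cells as the remaining control libraries was not tested. Since these values move with the groups, a change by MK-2206 or the FOXM1 shRNA and a difference in the cells themselves cannot be told apart for any fold change against those control libraries below. In bulk libraries fewer cells of a type and less RNA per cell cannot be told apart either.

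In control cells with DMSO the level per kilobase of exon was highest for PSAP, the precursor of the saposins that help degrade sphingolipids, at 128 ± 5.77 CPM per kb (SD, n = 2). PPT1 (55.4 ± 2.30), LAMP1 (49.5 ± 0.79) and GRN (40.6 ± 0.74) came next on the same scale, and the gaps between these 4 exceeded the SDs. MITF and CTSL were the lowest, with 0 and 1 counts of MITF and 0 and 0 of CTSL. CD68, a membrane glycoprotein used as a macrophage marker, had 3 and 0 counts, and at most 1 count in every other library. Its exons overlap a non-coding gene on the same strand over 81.6% of their length, so its count is uncertain. LGMN, the asparagine-specific protease legumain, had at most 6 counts in any library. No change is given for CD68 or LGMN.

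MK-2206 was compared with DMSO to ask how AKT inhibition changed gene expression. It split the lysosomal genes: 8 of 40 were called higher and 15 lower. Calls required at least a 2-fold difference together with an adjusted p under 0.1, from edgeR's quasi-likelihood test on 4 libraries and Benjamini-Hochberg adjustment over all genes tested, as in every comparison below. Among all 17653 protein-coding genes tested, 54.6% were called in this comparison (30.2% higher and 24.3% lower), and 59.9% of those with a mean of at least 10 counts, so 23 of 40 is close to the background. The median log2 fold change of the 40 genes was -0.69. That of protein-coding genes with at least 10 counts was -0.29 under TMM scaling, -0.51 on unscaled totals and -0.18 under the size factors of DESeq2. Values of single genes below are not shifted by that median. Relative to it, NEU1 stood at 4.83 and PPT1 at -3.71.

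The glycosidase NEU1, a sialidase that trims sialic acid from glycoproteins (chromosome 6, 31857659 to 31862905, minus strand), showed the steepest rise among genes that had 10 or more counts in each of the 4 libraries. It had 54.6 and 57.4 CPM with DMSO and 1358 and 1144 CPM after MK-2206. Both treated libraries lay far above both DMSO libraries, and the change was 23.4-fold (log2 fold change 4.55, standard error 0.28, adjusted p = 1.43e-59, edgeR). Per kilobase it was the most abundant of the 40 genes after MK-2206, at 259 ± 31.4 CPM per kb (SD, n = 2), from the 17th place with DMSO. NEU1 works in a complex with the protease CTSA and the galactosidase GLB1, of which CTSA was not called and GLB1 was called lower. CTSA stood at 41.5 and 46.3 CPM with DMSO and at 63.1 and 46.5 after MK-2206 (log2 fold change 0.38, adjusted p = 0.282, edgeR). GLB1 fell by 1.04 on the log2 scale, and lost its call with DESeq2's size factors, with edgeR's filterByExpr, with DESeq2 and without either DMSO library or the second MK-2206 library. GLA, which cleaves terminal galactose from glycolipids, rose from 30.6 and 30.5 to 142 and 143 CPM (log2 fold change 2.29). HEXA, GUSB and GAA were not called, with log2 fold changes of -0.48, -0.82 and -0.88. RPL36A, on the other strand, overlaps 9.0% of the exon length of GLA, and the strand setting of the counting is not given in the sources used here.

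Both proteins of lysosomal sterol export had transcripts that changed, in opposite directions. NPC1, the membrane protein of the pair, rose from 47.5 and 45.5 CPM to 320 and 307 CPM (7.07-fold, adjusted p = 9.84e-23, edgeR). NPC2, which hands cholesterol to NPC1, fell from 47.4 and 55.9 CPM to 7.4 and 11.4 CPM (log2 fold change -2.37, adjusted p = 4.26e-13, edgeR). The enzymes of sphingomyelin breakdown split likewise. SMPD1, acid sphingomyelinase, which releases ceramide, rose from 10.0 and 9.1 CPM to 51.4 and 31.3 (log2 fold change 2.18), and ASAH1, acid ceramidase, which cleaves ceramide, fell from 97.0 and 93.5 to 13.1 and 18.7 (log2 fold change -2.50). The treated and the DMSO libraries did not overlap in these 4 genes, which were named because they were called, so this adds no support.

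The deepest fall was that of PPT1, the thioesterase that removes palmitate from proteins (chromosome 1, 40072710 to 40097260, minus strand). Its level was 181 and 192 CPM with DMSO and 9.7 and 12.5 CPM with the inhibitor. The treated libraries lay far below, at a log2 fold change of -3.996 with a standard error of 0.31 (edgeR, adjusted p = 9.82e-36). LIPA, the acid lipase that hydrolyses cholesteryl esters and triglycerides, went from 83.5 and 75.4 CPM to 12.4 and 12.6 CPM. GRN, which encodes progranulin, fell by 1.79 on the log2 scale. PSAP was not called (log2 fold change -0.25). Of the 6 genes grouped as lipid hydrolases, thioesterase and cofactors 4 were thus called lower, 1 higher and 1 not called. The 4 were the lipid hydrolases LIPA and ASAH1, the thioesterase PPT1, and GRN, and the 1 called higher was the lipid hydrolase SMPD1.

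Among the 12 proteases 3 were called higher and 4 lower. CTSL, a cysteine endopeptidase, had 0 and 0 counts with DMSO and 162 and 210 after MK-2206, which is at least 144-fold higher against a floor of 3 counts per library. CTSZ, a carboxypeptidase, rose from 2.6 and 2.4 CPM to 20.995 and 13.2 CPM (log2 fold change 2.81). NELFCD on the other strand overlaps 31.7% of its exon length. CTSH, an aminopeptidase, rose by 1.25 on the log2 scale, and was not called once 1 of 3 libraries was left out, namely either DMSO library or the first MK-2206 library. CTSC, which activates serine proteases of granules, fell from 290 and 282 CPM to 32.1 and 45.4 (log2 fold change -2.81), and CTSD, the aspartic protease cathepsin D, from 50.6 and 65.8 to 8.9 and 9.4 (log2 fold change -2.61). The overlap of CTSD with genes on the same strand covers 27.3% of its exon length, so its counts are uncertain. CTSS, a protease of antigen processing, fell by 1.95 on the log2 scale. CTSO had 34 and 41 counts with DMSO and 3 and 3 after MK-2206, a ratio of 0.186 with a 95% counting interval of 0.0663 to 0.425, and lost its call with DESeq2 and without the second DMSO library. CTSA, CTSB, CTSK, TPP1 and LGMN were not called.

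The membrane proteins LAMP1, the most abundant glycoprotein of the lysosomal membrane, and SCARB2, the receptor that carries glucocerebrosidase to the lysosome, fell by 1.39 and 1.95 on the log2 scale. LAMP2, CD63, the channel MCOLN1 and CD68 were not called. Of the 5 V-ATPase members 3 were called lower and none higher, a split that depended on the scaling, since ATP6V0D1 was called higher with DESeq2's size factors, filterByExpr and DESeq2. ATP6V1H, a regulatory subunit, went from 143 and 139 CPM to 35.1 and 33.5 (log2 fold change -1.97). ATP6AP1, an accessory subunit, fell by 1.13 and lost its call with filterByExpr and without the second DMSO library. ATP6V1A, the catalytic subunit, differed between the treated libraries (35.1 and 98.4 CPM) and lost its call with filterByExpr, without either DMSO library and without the first MK-2206 library. ATP6V0D1 and ATP6V1B2 had log2 fold changes of 0.91 and 0.63.

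**Figure D1:**
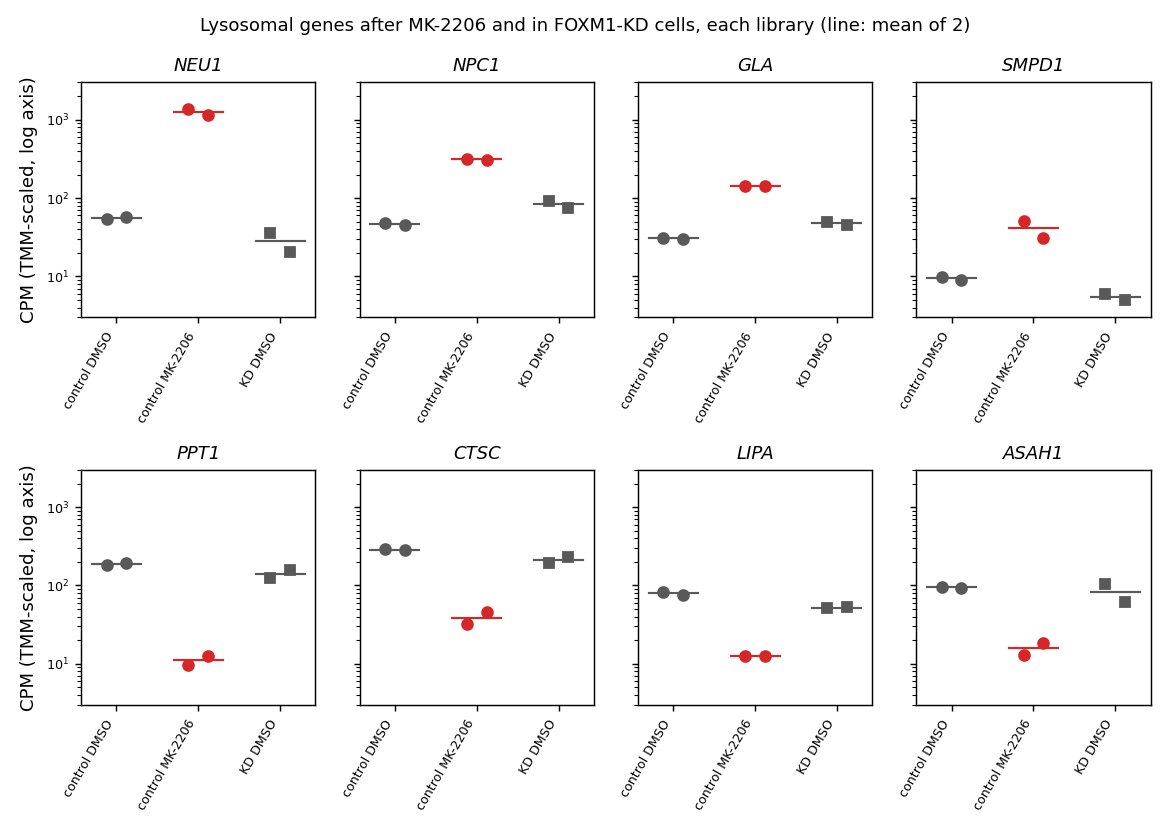
Each point is the level of a gene in 1 library, in CPM on a log axis, for control cells with DMSO or MK-2206 and FOXM1-KD cells with DMSO, and each line is the mean of 2 libraries. NEU1, NPC1, GLA and SMPD1 lie higher after MK-2206 and PPT1, CTSC, LIPA and ASAH1 lower. These genes were picked for their large changes, so the lack of overlap between MK-2206 and DMSO libraries adds no support.

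Of the 3 factors, MITF, the member of the family best known from melanocytes, osteoclasts and mast cells, was called. It had 0 and 1 counts with DMSO and 531 and 801 after MK-2206, or 75.8 and 92.6 CPM. The ratio of counts per library total was 3101, with a 95% counting interval of 556 to 122600. TFEB stood at 3.3 and 4.0 CPM with DMSO and 9.1 and 4.9 in the treated libraries. Its log2 fold change was 0.99 (edgeR, adjusted p = 0.0273), which missed the 2-fold limit under TMM scaling and passed it with DESeq2's size factors (1.10) and under filterByExpr (1.15). TFE3 was not called, at 44.2 and 51.1 CPM with DMSO and 33.8 and 29.1 after MK-2206 (log2 fold change -0.53, adjusted p = 0.127, edgeR).

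The genes with an E-box in their promoter did not move one way. After MK-2206 NEU1 was called higher, CTSD and LAMP1 were called lower, and ATP6V0D1, CD63, CTSA, GAA and MCOLN1 were not called. GAA and MCOLN1, which hold the CLEAR element, had log2 fold changes of -0.88 and 0.55.

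Beyond the 40 genes, 124 genes of lysosomal enzymes, membrane proteins, V-ATPase subunits, sorting proteins, cystatins and regulators of TFEB and TFE3 were followed. After MK-2206 36 of the 121 tested were called higher and 39 lower, with a median log2 fold change of 0.07. Among all protein-coding genes tested 30.2% were called higher and 24.3% lower. MCOLN2 and MCOLN3, paralogs of the channel MCOLN1, had 0 counts in both DMSO libraries, and 231 and 314 counts (MCOLN2) or 38 and 97 counts (MCOLN3) after MK-2206. TCIRG1, the a3 subunit of the V-ATPase, known from osteoclasts, had 49 and 30 counts with DMSO and 2952 and 2127 after MK-2206 (log2 fold change 7.33). ATP6V0C, the ring subunit of the pump, rose by 3.19 on the log2 scale and ATP6V0A1 had a log2 fold change of -2.37. Of the 18 further V-ATPase subunits tested 6 were called higher and 5 lower. Of the sorting genes, IGF2R, the large mannose 6-phosphate receptor, rose (log2 fold change 4.52) and GNPTAB, which builds the mannose 6-phosphate tag, fell (-4.26). Of the 20 regulators 7 were called lower and 1 higher. TFEC, the fourth member of the MiT/TFE family, had 3028 and 3147 counts with DMSO and 6 and 22 after MK-2206 (log2 fold change -6.51), and FNIP2, a partner of folliculin, was the regulator that rose (1.84).

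STL427944, given to control cells as a FOXM1 inhibitor, and venetoclax were each compared with DMSO. Neither comparison called a lysosomal gene by edgeR's quasi-likelihood test: 0 of 39 tested in each, with 0 at an unadjusted p below 0.05 and 0 by DESeq2. Of all protein-coding genes, 0% were called as well. The 2 libraries of each condition differed widely. NEU1 stood at 51.4 and 110 CPM with STL427944 and at 135 and 48.4 with venetoclax, against 54.6 and 57.4 with DMSO. ASAH1 stood at 89.8 and 161 CPM with STL427944 and at 159 and 93.3 with venetoclax. TFE3 was at 43.9 and 68.3 CPM with STL427944 and at 89.5 and 39.1 with venetoclax. In each of these genes 1 library lay near the DMSO libraries and the other above them, the second library with STL427944 and the first with venetoclax. CTSC, PPT1 and LIPA lay lower in the same 2 libraries. PPT1, for example, was at 190 and 127 CPM with STL427944 and at 138 and 187 with venetoclax. Without the first STL427944 library NEU1 and the collagen-degrading protease CTSK were called, and without the second none was. Leaving out either venetoclax library called none. MITF had 0 counts in all 4 libraries, and TFEB was at 2.1 and 5.1 CPM with STL427944 and 5.7 and 2.6 CPM with venetoclax.

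AraC in control cells raised 1 of the 40 genes, TFEB, where 8.16% of the protein-coding genes tested were called. TFEB (chromosome 6, 41683978 to 41736259, minus strand) had 61 and 72 counts with DMSO and 204 and 183 with AraC, or 3.3 and 4.0 against 10.5 and 8.7 CPM. The AraC libraries lay above the DMSO libraries (log2 fold change 1.38 ± 0.22 SE, edgeR, adjusted p = 0.000355). The call was lost without either AraC library. A further 8 genes had an adjusted p below 0.1 at changes under 2-fold, among them CTSZ (log2 fold change 0.93), CTSA (0.71), NEU1 (0.56) and CTSS (-0.59). TFE3 stood at 51.2 and 41.7 CPM (log2 fold change -0.06), and MITF had 2 and 3 counts. Of the 118 other pathway genes tested 6 were called higher and 2 lower. SGSH, a heparan sulfate sulfatase, rose by 2.55 on the log2 scale, from 7 and 11 counts to 53 and 67, and NAGLU, an enzyme of the same pathway, had a log2 fold change of -1.12. Of the 14 monocyte and macrophage markers 4 were called higher with AraC and none lower. Of the 3 granulocyte precursor markers tested 1 was called higher, MPO (log2 fold change 2.24), and none lower. Of the 9 myeloblast and stem cell markers KIT was called higher (1.26) and CD34 lower (-1.01). The part of these markers in the results was not tested.

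**Figure D2:**
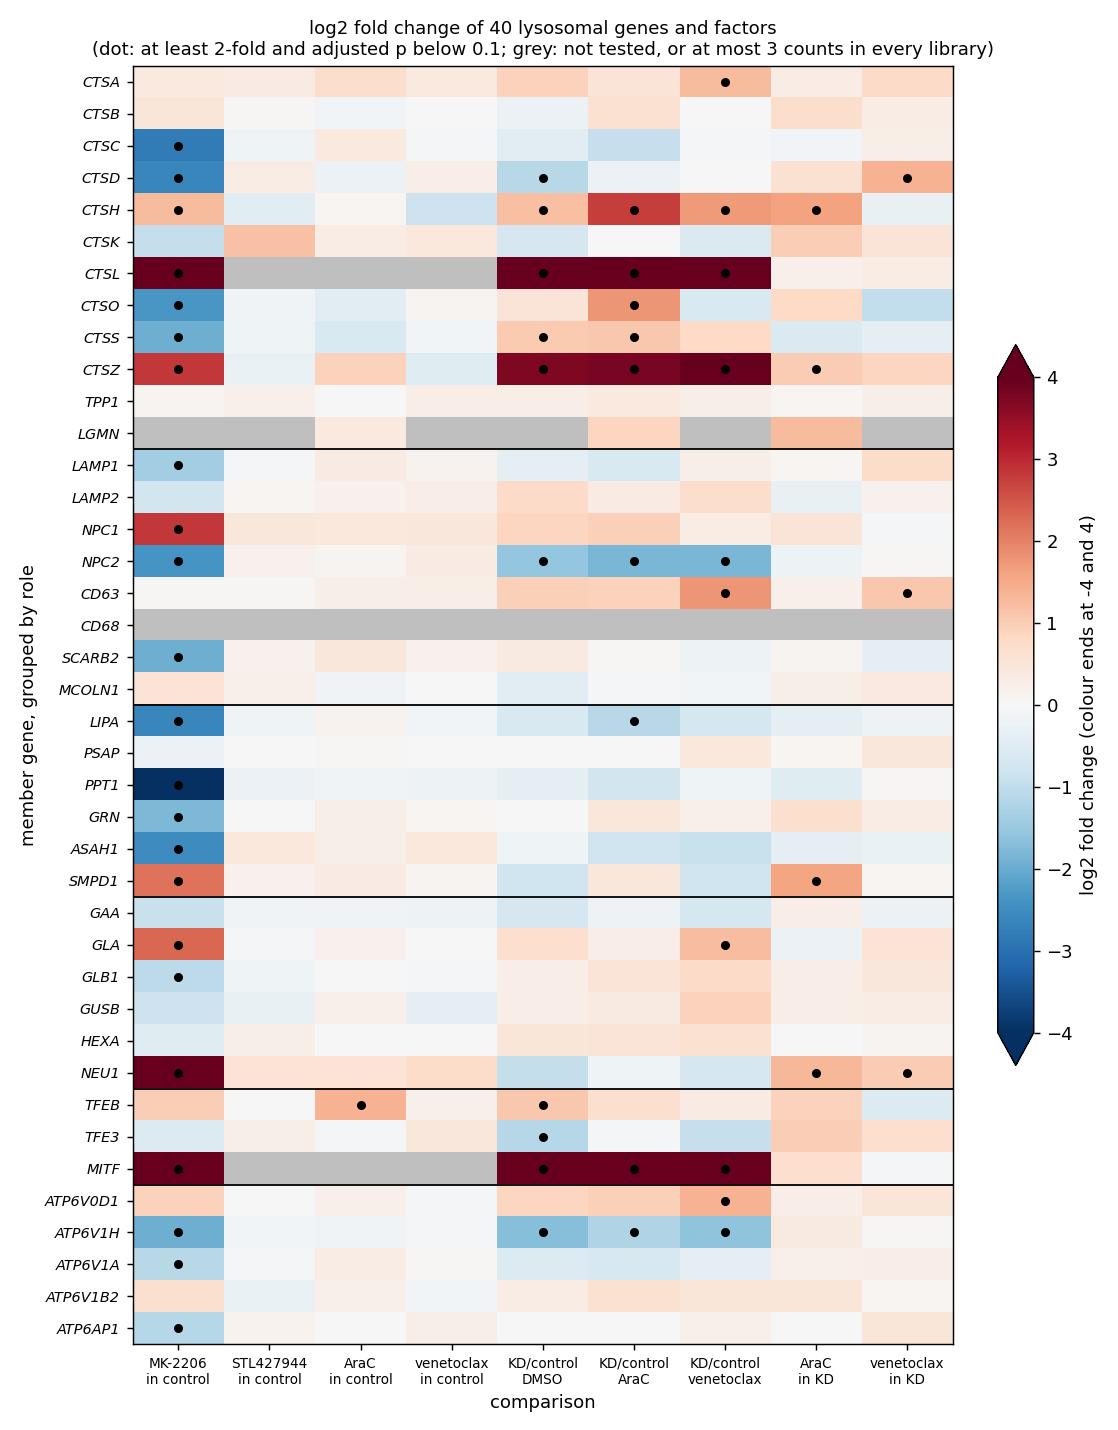
Colours give the log2 fold change of each of the 40 genes (rows, by role) in 9 comparisons (columns), where KD stands for FOXM1-KD cells. Dots mark called changes, which number 23 in the MK-2206 column, 0 for STL427944 and venetoclax in control cells, and 10, 9 and 10 for FOXM1-KD against control cells.

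FOXM1-KD cells were compared with control cells under DMSO, AraC and venetoclax to ask which genes differ with the FOXM1 shRNA, whose effect on FOXM1 itself was smallest with AraC. These 3 comparisons use different libraries. With DMSO 6 of the 40 genes were called higher and 4 lower, against a background of 29.6% of protein-coding genes called (13.4% higher and 16.2% lower, and 33.1% of those with at least 10 counts). With AraC 6 were higher and 3 lower (background 33.7%), and with venetoclax 8 were higher and 2 lower (background 30.4%). The share called was thus near or below that of all protein-coding genes each time. The median log2 fold changes of the 40 genes were 0.00, 0.34 and 0.21, and those of protein-coding genes with at least 10 counts were 0.02, -0.02 and 0.01.

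The same 6 genes were called in all 3 comparisons in 1 direction, where 21.4% of the 14769 protein-coding genes tested in all 3 were. CTSL, CTSZ, CTSH and MITF were higher, and NPC2 and ATP6V1H lower. CTSL (chromosome 9, 87724051 to 87731469, plus strand) had 0 or 1 counts in every control library apart from MK-2206. It had 202 and 244 counts in FOXM1-KD cells with DMSO, 261 and 253 with AraC and 230 and 216 with venetoclax. Against a floor of 3 counts per library it was at least 71.5-fold higher with DMSO and at least 84.3-fold higher with venetoclax, and with AraC the ratio was 577 (95% counting interval 103 to 22850). MITF (chromosome 3, 69739456 to 69968336, plus strand) followed the same pattern, with 0 to 3 counts in the control libraries, 222 and 195 counts in FOXM1-KD cells with DMSO, 289 and 377 with AraC and 141 and 184 with venetoclax. With venetoclax, where control cells had 0 counts, it was at least 60.8-fold higher. The ratios with DMSO and AraC were 401 (72 to 15890) and 150 (63.8 to 462).

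CTSZ (chromosome 20, 58985686 to 59008238, minus strand) went from 2.6 and 2.4 CPM in control cells to 33.3 and 33.1 in FOXM1-KD cells with DMSO, a 13.2-fold rise (adjusted p = 0.00135, edgeR). With AraC it was at 4.4 and 5.3 CPM in control and 73.3 and 67.0 in FOXM1-KD cells, and with venetoclax at 1.2 and 2.3 and at 66.0 and 53.8. All FOXM1-KD libraries lay above all control libraries. CTSH was lower in level, at 2.2 and 1.5 CPM in control cells and 4.2 and 4.3 in FOXM1-KD cells with DMSO (log2 fold change 1.195), and its call there was lost with any 1 of the 4 libraries left out. With AraC it stood at 2.2 and 1.8 against 14.9 and 12.7 CPM (2.75), a call kept without any 1 library. With venetoclax the values were 0.6 and 1.4 against 2.3 and 4.5 CPM (1.70), and the call was lost without the first control or the second FOXM1-KD library.

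NPC2 fell from 47.4 and 55.9 to 22.7 and 12.6 CPM with DMSO, from 62.4 and 50.2 to 16.6 and 15.8 with AraC and from 74.4 and 54.4 to 21.7 and 14.2 with venetoclax (log2 fold changes -1.54, -1.84 and -1.84). With DMSO its call was lost without either control library. NPC1 did not reach 2-fold in any of the 3 comparisons (0.86, 0.95 and 0.29). ATP6V1H fell from 143 and 139 to 47.4 and 38.0 CPM with DMSO (log2 fold change -1.71, adjusted p = 0.00367, edgeR), and by 1.21 and 1.61 on the log2 scale with AraC and venetoclax.

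**Figure D3:**
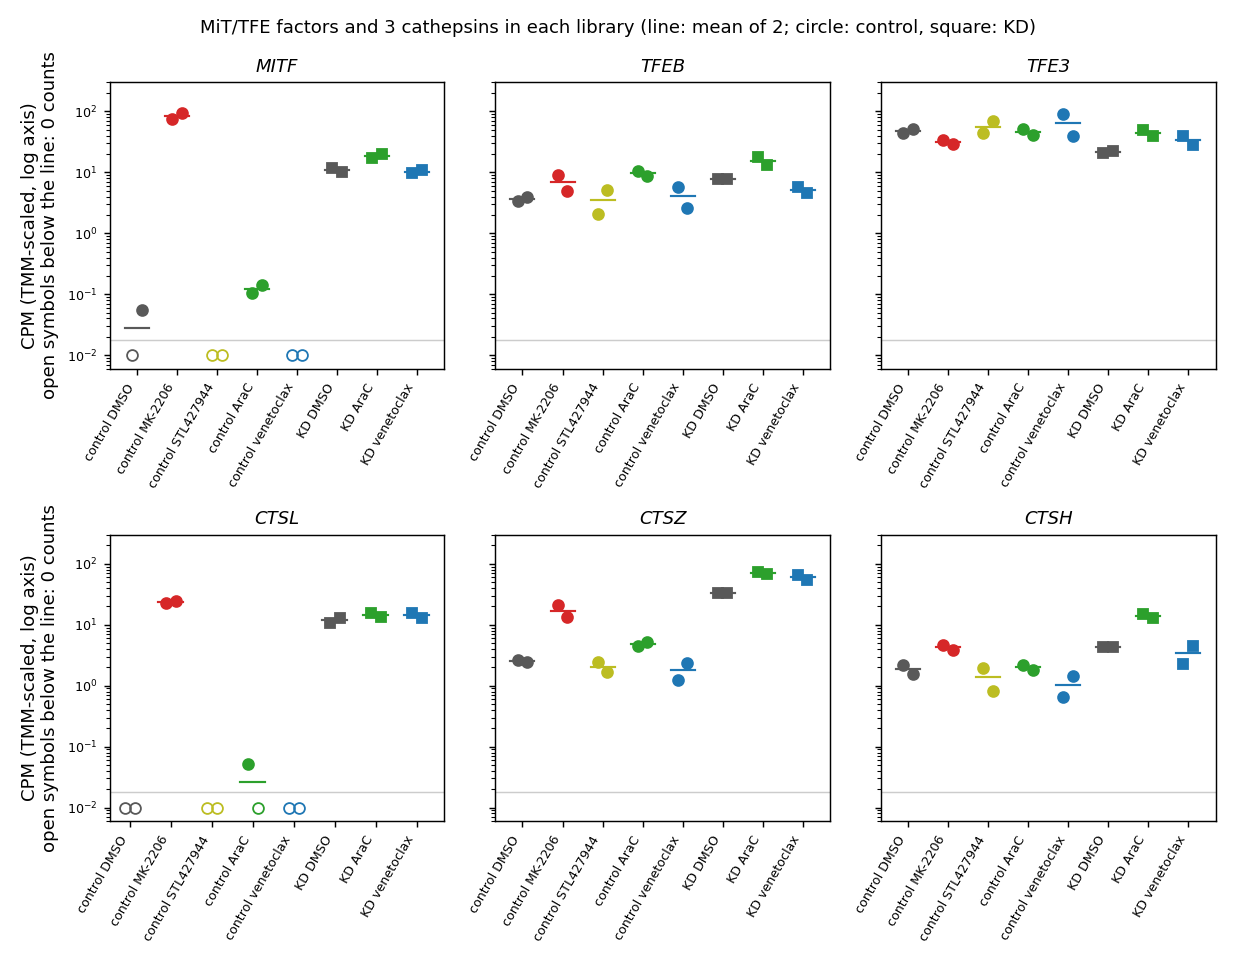
Levels of MITF, TFEB, TFE3, CTSL, CTSZ and CTSH in each of the 16 libraries, in CPM on a log axis, with 0 counts drawn as open symbols below the grey line and means of 2 libraries as lines. MITF and CTSL have at most 3 counts in control cells with DMSO, STL427944, AraC or venetoclax, and at least 141 counts in every MK-2206 and FOXM1-KD library.

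Other calls differed between treatments, and that difference was tested by the interaction terms below. With DMSO CTSS rose from 42.9 and 43.8 to 95.2 and 82.8 CPM (log2 fold change 1.05), and with AraC its log2 fold change was 1.07, calls that were lost without the first FOXM1-KD library with DMSO, and without the first control or the second FOXM1-KD library with AraC. TFEB rose with DMSO from 3.3 and 4.0 to 7.7 and 7.6 CPM (1.08, adjusted p = 0.0218, edgeR), and its log2 fold changes with AraC and venetoclax, 0.64 and 0.31, were not called. TFE3 (chromosome X, 49028726 to 49043410, minus strand) fell with DMSO from 44.2 and 51.1 to 20.6 and 22.6 CPM (-1.13, adjusted p = 0.00892, edgeR), and its log2 fold changes were -0.08 with AraC and -0.92 with venetoclax. So TFEB and TFE3 moved in opposite directions with DMSO, and without the second control library neither was called, nor was TFEB without the first. CTSD, called lower with DMSO, went from 50.6 and 65.8 to 25.8 and 27.8 CPM (-1.11) and lost its call without that same library. With AraC CTSO was called higher (1.77) and LIPA lower (-1.10). With venetoclax CTSA, CD63, GLA and ATP6V0D1 were called higher, at log2 fold changes of 1.28, 1.76, 1.22 and 1.40, and none of these 4 was called without the first FOXM1-KD library. CD63, a tetraspanin of late endosomes and granules, stood there at 222 and 96.7 CPM against 51.9 and 42.2 in control cells.

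Of the other pathway genes, 28 of 119 tested were called higher and 20 lower with DMSO. With AraC 33 of 122 were called higher and 20 lower, and with venetoclax 36 of 122 higher and 28 lower. Of all protein-coding genes tested 29.6%, 33.7% and 30.4% were called in these comparisons. MCOLN2 had 0 counts in every control library with DMSO, AraC or venetoclax, and 336 to 893 counts in FOXM1-KD cells. TCIRG1 rose in each of the 3 comparisons (log2 fold changes 6.62, 6.42 and 7.18), as did IGF2R (4.47, 5.48 and 4.00), the cystatin CST3, a secreted inhibitor of cysteine cathepsins (6.99, 5.74 and 7.29), and the proton-coupled amino acid transporter SLC36A1 (2.71, 3.26 and 3.96). TFEC, HGSNAT, CTSW and GNPTAB fell in each, TFEC with log2 fold changes of -4.32, -3.85 and -2.43. CTSF had 0 counts in both FOXM1-KD libraries with DMSO and with AraC. Without the first FOXM1-KD library with venetoclax the number called there was 30 in place of 64, and without the second it was 42.

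MK-2206 and FOXM1-KD cells were also set against each other. MK-2206-treated control cells and FOXM1-KD cells with DMSO differed in 20 of 39 lysosomal genes tested, 6 higher and 14 lower after MK-2206, where 46.8% of protein-coding genes were called. NEU1, at 36.3 and 20.8 CPM in FOXM1-KD cells, was 44.8-fold higher after MK-2206 (adjusted p = 4.89e-39, edgeR), and SMPD1, MITF, NPC1, GLA and CTSL were higher by 2.94, 2.97, 1.94, 1.60 and 1.04 on the log2 scale. CTSL lost that call with any 1 of the 4 libraries left out and with total counts only. PPT1, CTSS, CTSO, CTSC and ASAH1 were the deepest falls, with log2 fold changes of -3.64, -3.02, -2.87, -2.42 and -2.35. CTSS thus stood at 8.7 and 12.6 CPM after MK-2206, 42.9 and 43.8 with DMSO and 95.2 and 82.8 in FOXM1-KD cells, with no overlap among the 3 groups. CTSZ, CTSH, NPC2 and ATP6V1H, which were called in 1 direction in both conditions against DMSO, were not called between them. MK-2206 and FOXM1-KD share the DMSO libraries as control, so no count of shared calls is read from this.

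In FOXM1-KD cells AraC raised 4 lysosomal genes and lowered none, where 14.3% of protein-coding genes were called. CTSH rose from 4.2 and 4.3 to 14.9 and 12.7 CPM (log2 fold change 1.62), SMPD1 from 6.0 and 5.0 to 21.2 and 13.3 (1.57), NEU1 from 36.3 and 20.8 to 84.7 and 66.5 (1.33) and CTSZ from 33.3 and 33.1 to 73.3 and 67.0 (1.00). In each of these 4, named because they were called, the AraC libraries lay above the DMSO libraries. The adjusted p-values of edgeR's quasi-likelihood test were 0.000119, 0.000117, 7.16e-05 and 0.00498. None of the 4 was called without either AraC library. TFEB and TFE3 had log2 fold changes of 0.93 and 0.98, just under 2-fold, and MITF 0.67. Of the other pathway genes 14 were called higher and 1 lower, among them the heparanase HPSE (log2 fold change 2.84) and the iron transporter SLC11A1 (2.77), and lower PPP3CB (-1.49), a catalytic subunit of calcineurin, the phosphatase that acts on TFEB. Beside this, 4 of the 5 granulocyte precursor markers were called lower and 7 of the 14 monocyte and macrophage markers higher, and their part was not tested.

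The effect of AraC differed between FOXM1-KD and control cells, by the interaction term over 8 libraries, in 3 of the 40 genes, where 7.18% of protein-coding genes were called. The interaction was fitted and scaled apart from the 2 single comparisons, so its differences are not exactly the gaps between their changes. In it, protein-coding genes with at least 10 counts had a median difference of 0.07. CTSH changed by 0.07 on the log2 scale in control cells and by 1.62 in FOXM1-KD cells, with a fitted difference of 1.63 (standard error 0.47, adjusted p = 0.0135, edgeR). For SMPD1 the changes were 0.33 and 1.57 (difference 1.33, adjusted p = 0.0151, edgeR). For TFE3 they were -0.06 and 0.98 (difference 1.13, adjusted p = 0.00925, edgeR). The 3 were called with DESeq2 as well, but none when the spread was estimated over all 16 libraries (adjusted p from 0.451 to 0.498, edgeR). Each call was also lost without either AraC library of control cells or the first of FOXM1-KD cells. CTSH and SMPD1 lost theirs without the first DMSO library of control cells as well, and TFE3 without the second. CTSB, CTSD and NEU1 had differences of 0.92, 0.94 and 0.85 with an adjusted p below 0.1 but under 2-fold. TFEB, the gene that AraC raised in control cells, had a difference of -0.37 (adjusted p = 0.931, edgeR), with a standard error of 0.40. In the same interaction 1 of the 5 granulocyte precursor markers was called lower, and 2 of the 14 monocyte and macrophage markers higher. MPO, of the first list, had a difference of -3.67 and ITGAM, of the second, one of 3.84. CSF1R and MS4A7, also of the second, had -0.007 and -0.99 and were not called. The part of these cell markers in the result was not tested.

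**Figure D4:**
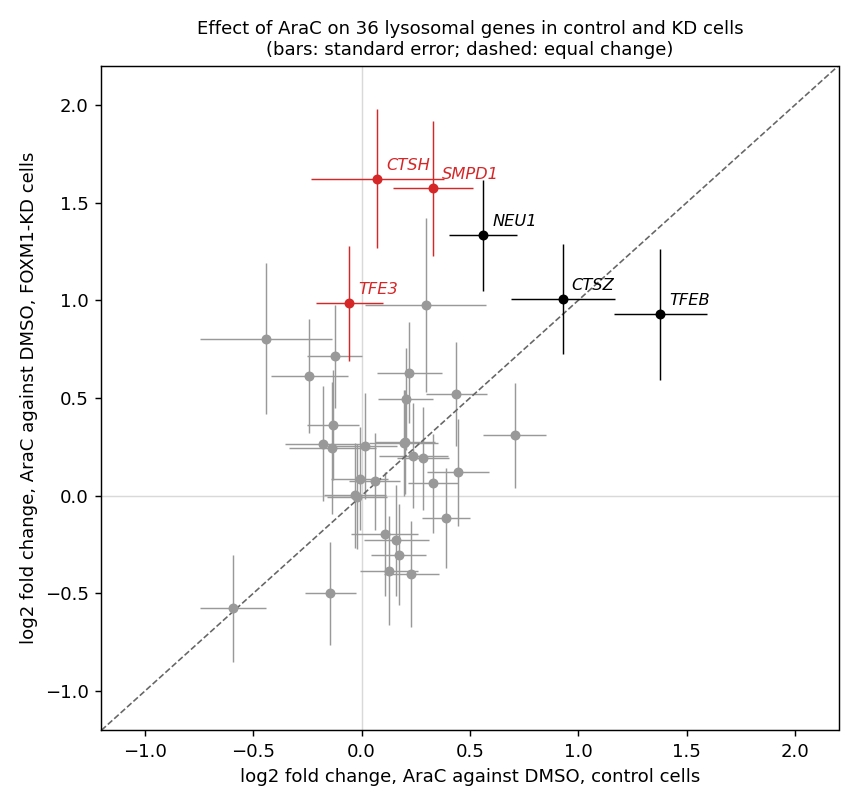
Each point is 1 of 36 lysosomal genes, with the log2 fold change of AraC against DMSO in control cells on the x axis and in FOXM1-KD cells on the y axis, bars for standard errors and a dashed line of equal change. CTSH, SMPD1 and TFE3 (red) lie above the line with a called difference, TFEB lies nearest to the right edge at 1.38, and the 4 genes with almost no counts in control cells or in all cells (CTSL, MITF, CD68, LGMN) are left out.

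With venetoclax in FOXM1-KD cells CTSD, CD63 and NEU1 were called higher and none of the 39 genes tested lower, where 2.84% of protein-coding genes were called. CTSD went from 25.8 and 27.8 to 88.5 and 51.4 CPM (log2 fold change 1.40, adjusted p = 0.0021, edgeR), CD63 from 80.7 and 72.5 to 222 and 96.7 (1.07, adjusted p = 0.0402, edgeR) and NEU1 from 36.3 and 20.8 to 79.4 and 35.0 (1.02, adjusted p = 0.085, edgeR). The treated libraries differed from each other by up to 2.3-fold in these genes, and the NEU1 groups overlapped. No call was left when any 1 of the 4 libraries was left out, and DESeq2 called CTSD alone. In the same comparison 4 of the 5 granulocyte precursor markers and 4 of the 14 monocyte and macrophage markers were called higher and none lower, and their part was not tested. MITF was at 11.7 and 10.3 CPM with DMSO and 9.6 and 11.0 with venetoclax, and the log2 fold changes of TFEB and TFE3 were -0.56 and 0.67. The interaction of venetoclax with FOXM1-KD called none of the 40 genes by edgeR (3 at an unadjusted p below 0.05, 0 by DESeq2), where 1.1% of protein-coding genes were called. Of the 122 other pathway genes tested it called 1, TFEC, which was higher (difference 1.90, adjusted p = 0.002, edgeR). With filterByExpr it called 0 of all genes. TFEC also rose with venetoclax within FOXM1-KD cells (log2 fold change 1.84). The interaction also called 3 of the 14 monocyte and macrophage markers and 2 of the 5 granulocyte precursor markers higher, and none lower. Their part was not tested.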

How the data were processed

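RNA-seq counts of 16 KG-1 libraries, 2 for each of 8 conditions, were used, and libraries without a number in the labels are called first and second in the order of deposit. The authors aligned reads with STAR to hg38 and counted them per gene with featureCounts, and deposited raw counts. Versions and the strand setting are not given in the sources used here. The labels name an Illumina stranded kit and the study's methods a CORALL kit.

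Gene symbols, positions and exon lengths came from GENCODE release 44, whose IDs were matched to 43177 of 43836 rows. Genes with at least 1 count in the libraries of a comparison were tested with edgeR 4.0.16 (R 4.3.3), with TMM scaling, glmQLFit and glmQLFTest, 4 libraries a comparison and 8 an interaction, with Benjamini-Hochberg adjustment over all genes tested. The tests were run first on simulated counts that gave every gene the same spread. For FOXM1-KD against control cells with DMSO 37.3% of 2-fold and 95.5% of 4-fold changes were recovered. For the AraC interaction these shares were 37.3% and 92.5%. A gene that was not called is therefore not shown to be unchanged. Calls needed a 2-fold change and an adjusted p below 0.1. CPM were computed on TMM-scaled totals. Totals per library ran from 7351755 to 21362546 counts, and a gene at 0 was given a floor of 3 counts. Counting intervals (95%, exact) cover counting error only. With 2 libraries a group, p-values measure the spread between these libraries, which may be technical. No 2 libraries of a group agreed within counting noise (chi-square over its degrees of freedom between 9.3 and 113.56).

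The members and gene lists were chosen with earlier results of these data known. TFEB, TFE3 and MITF were named in every comparison with DMSO or with control cells, but not all of them for MK-2206 against FOXM1-KD or the interactions. Called members were named by size, up to 12 a comparison with at least 10 counts in every library of 1 group. Of the other lists, called genes of the largest change were named, and some further genes after their values were seen. MK-2206, STL427944, AraC, venetoclax and FOXM1-KD with DMSO share the control DMSO libraries, so these comparisons are not independent. Alternatives were DESeq2 1.42.0, its size factors, total counts only, filterByExpr, an adjusted p below 0.05 and all 16 libraries in one fit. Others were the adjusted p of a test for any difference among the 8 groups, a replicate block and leaving out each library.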

Additional observations from a re-analysis of the deposited data

Results flagged for a closer look

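The response to AraC differed between FOXM1-KD and control cells, by the interaction term of edgeR's quasi-likelihood test, in 3 of the 40 genes. The difference in log2 fold change was 1.33 for SMPD1, 1.63 for CTSH and 1.13 for TFE3. All 3 responded more in FOXM1-KD cells. Among all protein-coding genes tested 7.18% were called in this interaction, so 3 of 40 is close to the background. None of the 3 was called when all 16 libraries entered one fit, and each call also depended on single libraries, as given above.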

How the results depend on the processing

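Of 1260 recomputed values over 110 results, 1130 kept their direction and their side of the threshold (for a count, stayed within 1.5 times), 96 became weaker, 14 stronger and 20 reversed. The numbers below are lysosomal genes called by edgeR, and where a value changed the cause was not tested. In 1 setting the adjusted p came from a test for any difference among the 8 groups, and the fold from the comparison itself. The calls were then 2 for STL427944, 3 for AraC, 1 for venetoclax, 6 for the AraC interaction and 4 for the venetoclax interaction. Of the other pathway genes 14 were called for AraC. Such a p can be small through other groups, so these calls are not tests of the drug named. MITF was among them for STL427944 and venetoclax, with 0 counts there and 0 and 1 with DMSO. DESeq2 left 1 call for venetoclax in FOXM1-KD cells, and all 16 libraries in one fit left 0 for the AraC interaction. Leaving out 1 library, where the lone library of an arm is assumed to vary like the other group, gave 0 to 2 calls for STL427944, 0 to 1 for AraC, 0 to 4 for AraC in FOXM1-KD cells, 0 to 0 for venetoclax in FOXM1-KD cells and 0 to 5 for the AraC interaction. For FOXM1-KD against control cells it gave 6 to 11 calls with DMSO and 6 to 12 with venetoclax. Of the other pathway genes 0 to 7 were then called for AraC and 30 to 56 for FOXM1-KD with venetoclax.

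Reversals were limited to log2 fold changes of TFEB, TFE3 and MITF that were not called. TFEB with STL427944 was 0.10 with total counts only and 0.015 with filterByExpr, TFE3 with AraC was 0.019 with total counts only, and TFEB between MK-2206 and FOXM1-KD was 0.033 with filterByExpr. With 1 library left out, TFEB ran from -0.81 to 0.50 with STL427944, from -0.47 to 0.67 with venetoclax, from -0.15 to 0.95 for FOXM1-KD with venetoclax and from -0.67 to 0.27 for MK-2206 against FOXM1-KD. TFE3 ran from -0.13 to 0.55 with STL427944, from -0.21 to 0.11 with AraC, from -0.29 to 0.94 with venetoclax, from -0.26 to 0.085 for FOXM1-KD with AraC and from -0.26 to 0.95 for the venetoclax interaction. MITF ran from -0.18 to 0.011 for venetoclax in FOXM1-KD cells and from -0.084 to 3.04 for the venetoclax interaction.

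Same-numbered libraries deviated together over 12583 genes (correlation from 0.323 to 0.496 in 10 pairs of numbered groups), though the labels do not say what a number marks, and the DMSO and STL427944 libraries carry none. With a replicate block 9 lysosomal genes were called for FOXM1-KD with AraC and 10 with venetoclax, the same genes as without it, and these were the comparisons in which the block could be fitted. Over all genes the block moved the calls from 7217 to 6946 and from 6056 to 6186. Counts of at most 3, as for MITF and CTSL in control cells, limit the precision of their folds.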
